A study of Mus musculus with 4 samples.

Results

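The interferon and double-stranded RNA (dsRNA) response was followed through 36 genes: 11 sensors and dsRNA-binding enzymes, 8 signalling proteins and regulators, and 17 effectors. They were picked by gene symbol from the deposited transcript table, and the values of all transcripts of a symbol were added up. All 36 were among the 45803 symbols of the table, where they had 161 of the 110295 transcripts. Of the 36, 28 were among the 13817 genes that reached 1 FPKM (fragments per transcript length and library size) in at least 2 of the 4 libraries, and these 28 were tested. Each of the 28 reached the minimum in at least 1 library of each genotype.

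The libraries came from epidermal keratinocytes of P0 (newborn) mice, with 2 libraries per genotype. Control mice were K14Cre,Mettl14F/+ and the conditional knockout (cKO) mice were K14Cre,Mettl14F/F, so both groups carried Cre recombinase under the keratin 14 promoter, which is active in basal keratinocytes, and the control had 1 floxed and 1 wild-type allele. No treatment was given. Mettl14 encodes part of the methyltransferase that places N6-methyladenosine (m6A) in RNA. The part of Mettl14 that Cre removes is not given in the labels, and immune cells and melanocytes of the epidermis do not normally use the keratin 14 promoter.

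The cytosolic helicases RIG-I and MDA5 bind dsRNA and pass the signal to MAVS on the mitochondrial surface, from which kinases activate the transcription factors IRF3 and IRF7 and the interferon genes. Secreted interferon acts through its receptors on a complex that holds STAT2 and IRF9 and binds a repeated GAAA element in the promoters of interferon-stimulated genes. m6A and the editing of adenosine to inosine by ADAR are among the RNA modifications known to keep a cell's own transcripts from being read as foreign, and keratinocytes can make interferon-κ.

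Mettl14, the targeted gene (GRCm38 chromosome 3, 123368297 to 123386108; ENSMUSG00000028114), stood at 7.00 FPKM in control library 1, 6.40 in control library 2, 5.89 in cKO library 1 and 3.79 in cKO library 2, the order in which values are given from here on. Both cKO libraries lay below both control libraries, and the log2 difference was -0.42 ± 0.26 (SE), with a limma adjusted p of 0.959. The depth implied by low values lay between 16886113 and 25702584 reads or fragments per library, and 13106 to 13837 genes reached 1 FPKM. Over all genes, 0% of 13817 passed limma at an adjusted p of 0.05, while 454 were higher and 232 lower in cKO at an unadjusted p of 0.05. A reading that needs no model is whether both cKO libraries lie above, or below, both control libraries: this held for 16.2% and 16.6% of all genes tested. Keratin genes of keratinocytes were abundant (Krt14, 1435 to 2549.5 FPKM; Krt5, 500.4 to 1332 FPKM), and the 5 endothelial markers summed to 0.79 to 1.82 FPKM, with Cdh5 and Emcn listed at 0 in both control libraries.

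The promoters show which members carry the element that interferon-activated factors bind. RefSeq promoter sequences (GRCm38.p6, from 250 bases before to 50 after a gene's start) matched 28 of the 36 members by symbol. A search of both strands for GAAA, any 2 bases and again GAAA (TTTC on the other strand) found it in 13 of these 28, against 1079 of 27025 symbols (3.99%) with a promoter window. It was present in 5 of 7 sensors and dsRNA-binding enzymes, 7 of 14 effectors and 1 of 7 signalling members, the signalling member being Stat2. The first 4 sequences are effectors with more than 1 match in the 160 bases before the start. The last 2 belong to Mavs and Trim25, the signalling members with the largest differences between genotypes, which had no match. Each runs from 5′ to 3′ on the gene's strand, and capitals mark the element on either strand, merged where matches overlap.
Isg15, chr4:156200819-156200978, minus strand: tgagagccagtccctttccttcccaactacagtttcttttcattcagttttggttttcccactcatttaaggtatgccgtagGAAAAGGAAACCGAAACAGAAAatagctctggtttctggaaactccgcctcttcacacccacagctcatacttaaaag
Ifit1, chr19:34640729-34640888, plus strand: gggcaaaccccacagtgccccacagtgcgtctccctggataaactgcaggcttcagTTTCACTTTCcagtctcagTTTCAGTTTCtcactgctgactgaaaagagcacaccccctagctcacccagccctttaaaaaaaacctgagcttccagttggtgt
Ifit3, chr19:34583369-34583528, plus strand: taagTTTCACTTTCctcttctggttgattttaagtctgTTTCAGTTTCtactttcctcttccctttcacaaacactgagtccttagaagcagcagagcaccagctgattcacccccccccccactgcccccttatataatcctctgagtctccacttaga
Bst2, chr8:71537473-71537632, minus strand: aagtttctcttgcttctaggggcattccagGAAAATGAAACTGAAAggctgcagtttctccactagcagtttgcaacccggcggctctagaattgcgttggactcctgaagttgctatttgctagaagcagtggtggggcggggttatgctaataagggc
Mavs, chr2:131233903-131234062, plus strand: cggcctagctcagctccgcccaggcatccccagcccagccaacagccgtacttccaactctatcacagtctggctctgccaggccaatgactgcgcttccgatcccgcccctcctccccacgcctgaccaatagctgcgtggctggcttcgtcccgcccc
Trim25, chr11:88999243-88999402, plus strand: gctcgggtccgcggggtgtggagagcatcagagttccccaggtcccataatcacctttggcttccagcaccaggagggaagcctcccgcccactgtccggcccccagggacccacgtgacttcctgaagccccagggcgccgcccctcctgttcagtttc

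In Isg15 there were 3 overlapping matches, whose first bases lay 78, 72 and 66 bases before the start (positions -78, -72 and -66), and in Ifit1 there were 2 at -104 and -85. The 12 tested members with the element had a median log2 difference of 0.10, and both cKO libraries lay above both control libraries in 3 and below in 0. The 12 tested members with a window and no match had a median of -0.04, with 3 below and 4 above. Among all tested genes with a window, the medians were -0.02 in the 342 with the element and -0.02 in the 9214 without it. Both cKO libraries lay above both control libraries in 44 of these 342 and below in 61, and in 1613 and 1544 of the 9214. Dhx58, Ifi27, Mx1, Mx2, Oas1b, Oas2, Usp18 and Zbp1 had no promoter window in the table.

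The first question was whether the response as a whole differed between genotypes. None of the 28 tested members passed limma with Benjamini-Hochberg adjustment (adjusted p from 0.959 to 0.995), and limma-voom on recovered reads called 0 as well. In limma 1 member, Ifi27, had an unadjusted p under 0.05, beside 686 of all 13817 genes tested. The median log2 difference over the 28 was 0.02, beside -0.03 over all genes tested, and the standard errors ran from 0.19 to 0.40. Both cKO libraries lay above both control libraries in 7 members (Ddx58, Irf3, Irf9, Isg15, Mavs, Stat2 and Trim25), and below in 4 (Ifi27, Irf1, Psmb8 and Psmb9). The 7 are 25.0% of the members tested and the 4 are 14.3%, against 16.2% and 16.6% of all genes. With the columns scaled to equal sums the 7 became 4, since Ddx58, Irf3, Irf9 and Stat2 then overlapped and Ifitm3 joined, and the 4 became 5 with Irf7. A difference that misses the threshold is not shown to be absent.

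The members differed most in level. Mean FPKM over the 4 libraries ran from 0.25 for Ifi44 to 43.8 for Irf3, and the median member was at 4.93 FPKM among signalling genes, 2.06 among effectors and 1.28 among sensors and dsRNA-binding enzymes. The difference between genotypes also depended on the library number in the labels. Its median over the 28 tested members was -0.10 within number 1 and 0.11 within number 2. Over all genes tested it was -0.03 and -0.02. In 11 of the 28 members the difference had opposite signs within the 2 numbers, in 10 it was positive within both and in 7 negative within both.

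**Figure D1:**
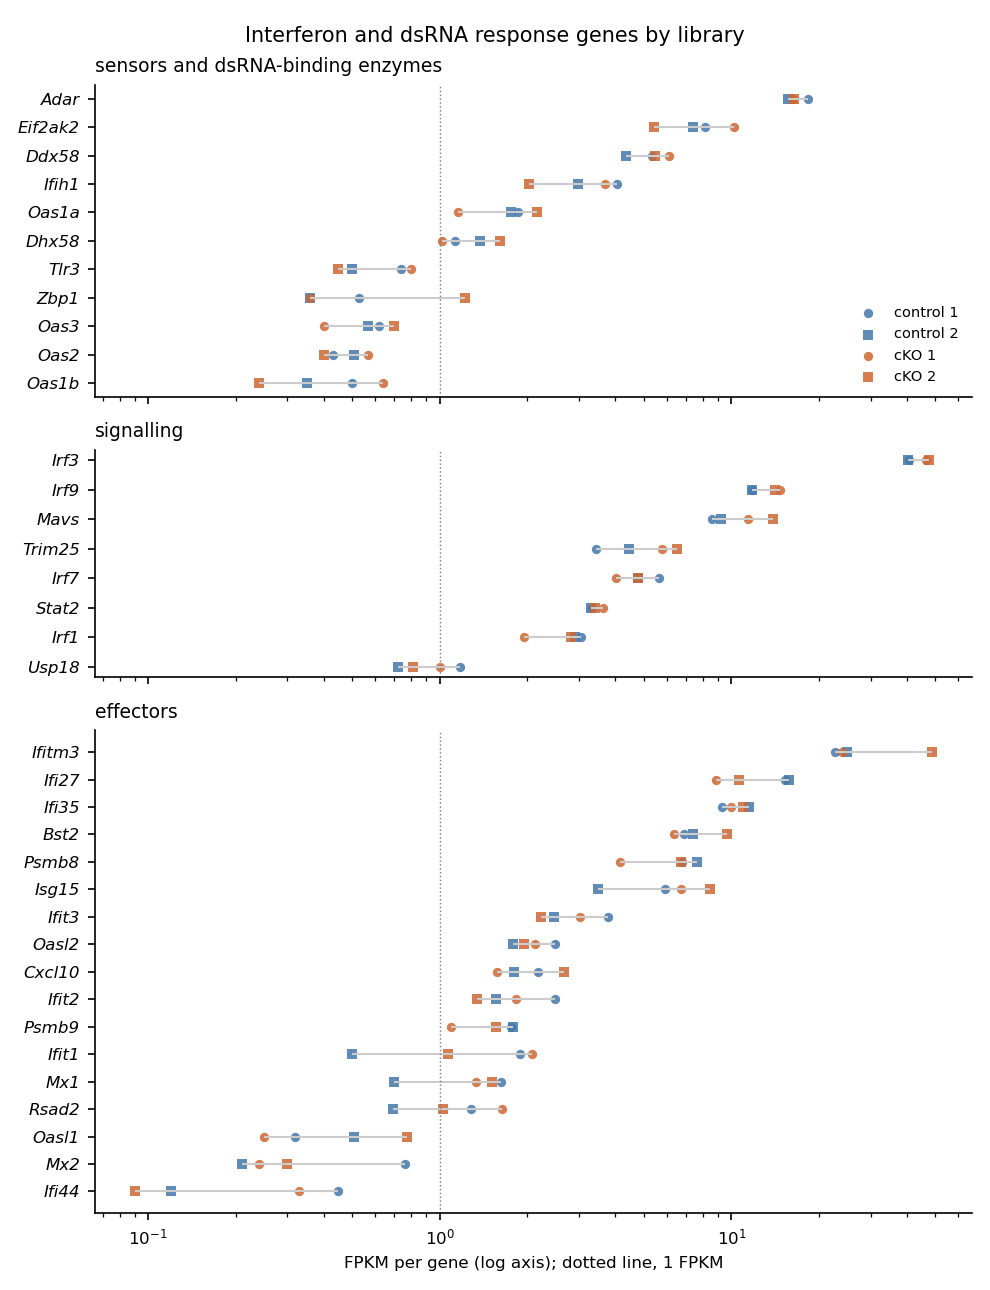
FPKM per gene (log axis) of the 36 members in each of the 4 libraries, grouped by class; each point is 1 library, circles and squares are libraries numbered 1 and 2, and grey lines span the range. The cKO points of Mavs, Trim25, Irf3 and Irf9 lie to the right of their control points, those of Ifi27 to the left, and most other members have the genotypes interleaved.

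Among the sensors, Ddx58 and Ifih1 encode the helicases RIG-I and MDA5. Ddx58 (GRCm38 chromosome 4, 40203773 to 40239828) was at 5.33 and 4.35 FPKM in the controls against 6.13 and 5.48 in the cKO libraries. Both cKO libraries were above both control libraries, by 0.15 FPKM at the nearest, and the log2 difference was 0.22 ± 0.22 (limma adjusted p = 0.959). The Ddx58 libraries overlapped under median-ratio scaling, equal column sums and limma-voom, but not with coding transcripts alone. Its main coding transcript, Ddx58-201, overlapped, at 3.61 and 2.56 FPKM in the controls against 3.82 and 2.77 in the cKO libraries. Ifih1 (chromosome 2, 62595798 to 62646255) was at 4.05 and 2.97 FPKM in the controls against 3.68 and 2.02 in the cKO libraries. The Ifih1 libraries overlapped, with the libraries numbered 2 low in both genotypes, and its difference of -0.25 ± 0.30 moved from -0.57 without cKO library 1 to 0.06 without cKO library 2. The coding transcript Ifih1-201 was listed at 2.37 and 1.58 FPKM in the controls against 1.47 and 0.97 in the cKO libraries. On that transcript both cKO libraries were below both control libraries. This was the case for 16.2% of the 27201 transcripts that reached the same minimum, and for 15.4% of the 17926 coding ones.

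Dhx58, which encodes LGP2, a helicase that modulates RIG-I and MDA5, was near the minimum, at 1.13 and 1.37 FPKM in the controls against 1.02 and 1.61 in the cKO libraries. Tlr3, the endosomal dsRNA receptor, stayed under 1 FPKM in every library (0.74 and 0.50 in the controls against 0.80 and 0.45 in the cKO libraries) and was not tested. Zbp1, a sensor of Z-form nucleic acids that can start cell death, was listed at 0.53 and 0.36 FPKM in the controls against 0.36 and 1.22 in the cKO libraries. Its value in cKO library 2 rested on 32 recovered reads, against 7 to 14 in the other libraries.

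Adar and Eif2ak2 act on dsRNA after it has formed. ADAR edits adenosine to inosine in dsRNA, and PKR, the product of Eif2ak2, halts translation when it binds dsRNA. Adar (chromosome 3, 89715022 to 89753446) was the most abundant dsRNA-binding member, at 18.34 and 15.58 FPKM in the controls against 16.30 and 16.35 in the cKO libraries, and both cKO libraries lay between the control libraries. Its log2 difference was -0.05 ± 0.20 (limma adjusted p = 0.986). The 2 long coding transcripts, of 1152 and 1178 codons, which correspond to the interferon-inducible form, summed to 6.90 and 6.70 FPKM in the controls against 6.72 and 7.71 in the cKO libraries. The 3 shorter ones summed to 6.13 and 6.41 in the controls against 4.93 and 6.94 in the cKO libraries. The long form thus made up 53.0% and 51.1% of coding Adar FPKM in the controls against 57.7% and 52.6% in the cKO libraries, which overlapped. Adar shares 1365 exonic bases with Chrnb2 on the opposite strand, and whether the kit marks strand is not stated in the labels.

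Eif2ak2 (chromosome 17, 78852564 to 78882573) was at 8.14 and 7.38 FPKM in the controls against 10.23 and 5.44 in the cKO libraries. The highest and the lowest value were both in cKO, and the difference was -0.04 ± 0.31, or -0.44 without cKO library 1 and 0.36 without cKO library 2. The OAS genes encode enzymes that answer dsRNA with 2′-5′ oligoadenylate, a second messenger. Oas1a was at 1.86 and 1.75 FPKM in the controls against 1.16 and 2.15 in the cKO libraries, again with both extremes in cKO. Oas1a shares 57.6% of its 50-base words with Oas1g, so that reads of the 2 genes may have been split between them. Oas1b, Oas2 and Oas3 were not tested, at 0.24 to 0.70 FPKM and 11 to 80 recovered reads per library.

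The signalling members were where most non-overlapping libraries were found. Both cKO libraries lay above both control libraries in 5 of 8 (Irf3, Irf9, Mavs, Stat2 and Trim25) and below in 1 (Irf1), and the median difference was 0.14, with 0.14 within number 1 and 0.15 within number 2. With equal column sums the counts were 2 of 8 above (Mavs and Trim25) and 2 below, and with median-ratio scaling 4 above and 1 below. None of the 8 passed limma, and the shares over all genes were 16.2% above and 16.6% below. In the same libraries the leukocyte markers were lower in cKO, as given with the cell type markers, and whether they had a part in this pattern was not tested.

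Trim25, a ubiquitin ligase that activates RIG-I (chromosome 11, 88999376 to 89020293), was at 3.44 and 4.45 FPKM in the controls against 5.80 and 6.52 in the cKO libraries. The nearest libraries of the 2 genotypes were 1.35 FPKM apart, and the log2 difference was 0.54 ± 0.23, with 0.62 within number 1, 0.46 within number 2 and a limma adjusted p of 0.959 (unadjusted, 0.0586). Leaving out each library in turn gave 0.39 to 0.69. Mavs, the mitochondrial adaptor (chromosome 2, 131234063 to 131248025), was at 8.58 and 9.18 FPKM in the controls against 11.36 and 13.86 in the cKO libraries. Its libraries did not overlap either, and its difference was 0.46 ± 0.21, with 0.37 within number 1, 0.55 within number 2 and a limma adjusted p of 0.959 (unadjusted, 0.0758). Trim25 and Mavs kept both cKO libraries above both control libraries under median-ratio scaling, equal column sums, limma-voom and protein-coding transcripts alone.

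Mavs has 2 main transcripts with the same 503 codons, and they differ in the bases before the coding part, 119 in Mavs-201 and 309 in Mavs-202. Mavs-201 was at 7.35 and 6.50 FPKM in the controls against 7.59 and 8.85 in the cKO libraries, a difference of 0.22. Mavs-202, the one with the longer leader, was at 0.85 and 2.21 FPKM in the controls against 3.53 and 4.64 in the cKO libraries, a difference of 1.05. Both transcripts had both cKO libraries above both control libraries, which 14.1% of all transcripts and 17.5% of coding transcripts did. How reads common to the 2 transcripts were divided is not given in the sources used here, so the split between them is uncertain. Trim25 was carried by Trim25-203, of 634 codons, at 3.44 and 4.03 FPKM in the controls against 4.68 and 6.52 in the cKO libraries.

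Irf3 encodes the transcription factor that RIG-I and MDA5 signalling activates first. It was the most abundant member (chromosome 7, 44997648 to 45002848), at 40.78 and 40.34 FPKM in the controls against 46.49 and 47.61 in the cKO libraries. The 2 libraries of each genotype were close together and the genotypes apart. The size depended on the transcripts counted: the log2 difference was 0.21 ± 0.20 over all 9 transcripts (limma adjusted p = 0.959), 0.74 ± 0.24 over coding transcripts alone (adjusted p = 0.829) and 0.80 ± 0.22 with limma-voom on recovered reads (adjusted p = 0.889). With equal column sums the libraries overlapped. Irf3-201, a coding transcript, was at 4.40 and 5.60 FPKM in the controls against 9.14 and 8.34 in the cKO libraries, a difference of 0.70. Irf3-202, also coding, was at 5.12 and 4.78 in the controls against 5.68 and 11.78 in the cKO libraries, with cKO library 2 alone far above. These 2 transcripts, with 15.7% and 15.6% of the FPKM of Irf3, are the only ones of the 9 whose IDs were found in the annotation used. Coding transcripts alone and recovered reads thus rest on them. Of the 7 others, 2 had both cKO libraries below both control libraries. ENSMUST00000146355 was at 4.48 and 4.79 FPKM in the controls against 3.12 and 2.78 in the cKO libraries. ENSMUST00000145233 was at 1.14 and 1.70 in the controls and listed at 0 in both cKO libraries. ENSMUST00000107835, with 13.5% of the FPKM, overlapped at 6.97 and 5.50 in the controls against 5.20 and 5.96 in the cKO libraries, a difference of -0.13. The abundant ENSMUST00000130610, at 14.16 and 13.32 against 17.53 and 14.03, overlapped, and Irf3 also shares 88 exonic bases with Bcl2l12 on the opposite strand.

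Irf9, the DNA-binding partner of STAT2 (chromosome 14, 55603571 to 55610030), was at 11.79 and 11.74 FPKM in the controls against 14.70 and 14.12 in the cKO libraries. Its difference was 0.27 ± 0.19 (limma adjusted p = 0.959), or 0.44 ± 0.20 over coding transcripts alone, with overlap under equal column sums. The coding transcript Irf9-202 accounted for the gap, at 5.95 and 4.82 FPKM in the controls against 8.31 and 9.38 in the cKO libraries, a difference of 0.63. Irf9-203, which codes for 465 rather than 399 codons, overlapped at 2.87 and 2.86 in the controls against 3.53 and 2.40 in the cKO libraries. Irf9 shares 123 exonic bases with Rnf31 on the same strand. Stat2 was nearly level, at 3.33 and 3.30 FPKM in the controls against 3.64 and 3.42 in the cKO libraries.

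The other signalling members did not share this direction. Irf1, an interferon-induced transcription factor, was at 3.06 and 2.92 FPKM in the controls against 1.95 and 2.81 in the cKO libraries, with both cKO libraries below both control libraries but cKO library 2 within 0.11 FPKM of control library 2. Irf7, the factor that amplifies interferon-α production, was at 5.63 and 4.77 FPKM in the controls against 4.03 and 4.80 in the cKO libraries and overlapped. Usp18, which removes ISG15 from proteins and dampens the interferon receptor, was near the minimum at 1.17 and 0.72 FPKM in the controls against 1.00 and 0.81 in the cKO libraries.

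**Figure D2:**
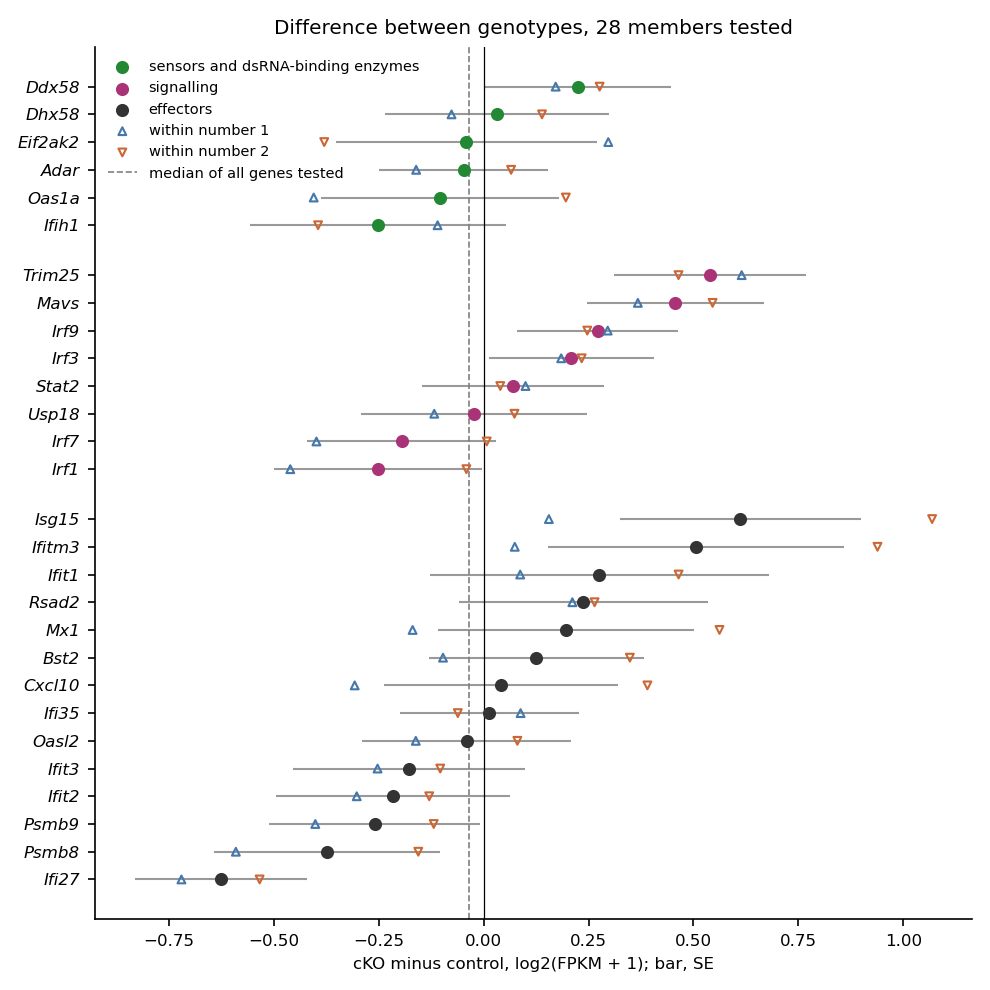
Log2 difference, cKO minus control, on log2(FPKM + 1) for the 28 members tested, with SE bars; filled points are the limma estimates by class, open triangles the differences within libraries numbered 1 and 2, and the dashed line is the median of all genes tested, -0.03. The triangles of Trim25, Mavs, Irf9 and Irf3 lie close to their estimates on the positive side, those of Ifi27 on the negative side, and those of Isg15 and Ifitm3 lie far apart.

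Effectors, the products that act against viruses or present antigen, showed no common direction. Of 14 tested, both cKO libraries were above both control libraries in 1 and below in 3, near the shares over all genes (16.2% and 16.6%), with a median difference of 0.03, which was -0.17 within number 1 and 0.17 within number 2. Isg15, the ubiquitin-like protein coupled to targets during the response (chromosome 4, 156199424 to 156200818), was at 5.94 and 3.50 FPKM in the controls against 6.73 and 8.44 in the cKO libraries. It had the largest positive difference of any member tested, 0.61 ± 0.29 (limma adjusted p = 0.959, unadjusted 0.0794). Much of it came from the libraries numbered 2, with 0.16 within number 1 and 1.07 within number 2, and leaving out each library gave 0.30 to 0.93.

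Ifitm3, a membrane protein that blocks viral entry (chromosome 7, 141009586 to 141010770), was at 22.67 and 24.96 FPKM in the controls against 23.92 and 48.76 in the cKO libraries. Only cKO library 2 stood out: the difference of 0.51 ± 0.35 was 0.01 without that library and 1.01 without cKO library 1. The IFIT proteins bind foreign RNA ends, and Ifit1 was at 1.89 and 0.50 FPKM in the controls against 2.07 and 1.07 in the cKO libraries. Its 2 libraries numbered 2 were low in both genotypes, with 31 and 73 recovered reads against 87 and 93. Ifit2, at 2.49 and 1.56 in the controls against 1.83 and 1.34 in the cKO libraries, and Ifit3, at 3.79 and 2.47 in the controls against 3.02 and 2.23 in the cKO libraries, had the same order by number and overlapped between genotypes. Ifit3 shares 51.2% of its 50-base words with Ifit3b, which makes its level uncertain. The IFIT genes Ifit1 and Ifit3, whose promoters hold 2 copies of the element each, thus had differences of 0.28 ± 0.40 and -0.18 ± 0.28.

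Ifi27, a small interferon-inducible membrane protein (chromosome 12, 103434211 to 103440239), was at 15.26 and 15.78 FPKM in the controls against 8.87 and 10.59 in the cKO libraries. Both cKO libraries were well below both control libraries, and the difference of -0.63 ± 0.20 was the most negative of the members tested (limma adjusted p = 0.959, unadjusted 0.0234). It was -0.72 within number 1, -0.53 within number 2 and between -0.74 and -0.51 without any 1 library. The 6 transcripts of Ifi27 annotated as coding summed to 7.06 and 8.23 FPKM in the controls against 4.94 and 7.54 in the cKO libraries and overlapped. The 3 transcripts annotated as retained introns summed to 8.20 and 7.55 in the controls against 3.93 and 3.05 in the cKO libraries and did not overlap. Over all genes, 18.2% of 4940 retained-intron transcripts had both cKO libraries below both control libraries and 4.82% above, with a median difference of -0.21, beside 15.4% below and 17.5% above for 17926 coding transcripts. With coding transcripts alone the difference of Ifi27 was -0.28 ± 0.26, and its libraries overlapped.

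**Figure D3:**
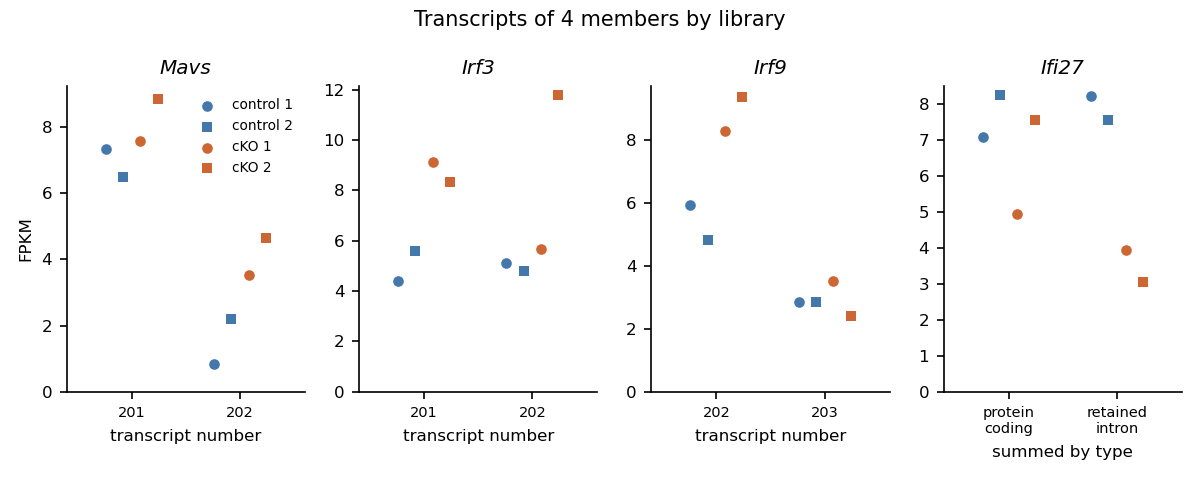
FPKM of named transcripts of Mavs, Irf3 and Irf9, and of Ifi27 transcripts summed by annotated type, in the 4 libraries; each point is 1 library and the axes start at 0. The cKO points are above the control points for Mavs-202, Irf3-201 and Irf9-202, and below them for the retained-intron transcripts of Ifi27, while its coding transcripts overlap.

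Psmb8 and Psmb9 encode subunits of the immunoproteasome, which cuts peptides for antigen presentation and is abundant in immune cells. Psmb8 (chromosome 17, 34197721 to 34201454) was at 6.77 and 7.60 FPKM in the controls against 4.16 and 6.72 in the cKO libraries, a difference of -0.37 ± 0.27. The gap between the nearest libraries was 0.05 FPKM, and cKO library 1 alone was clearly low. Psmb9 (34181987 to 34187764) was at 1.76 and 1.78 FPKM in the controls against 1.09 and 1.56 in the cKO libraries, a difference of -0.26 ± 0.25 (-0.60 ± 0.45 with limma-voom), and shares 212 exonic bases with Tap1 on the opposite strand. With coding transcripts alone the libraries of both Psmb8 and Psmb9 overlapped, and those of Psmb8 also overlapped with limma-voom. The 8 leukocyte markers summed to 407.8 and 491.0 FPKM in the controls against 234.1 and 362.6 in the cKO libraries, with cKO library 1 likewise the lowest. A large part of this sum was Cd74, at 197.3 and 263.2 in the controls against 114.2 and 196.5 in the cKO libraries. Ptprc and Cd3d were lowest in cKO library 2 instead, and the other markers in cKO library 1. The part of these markers in the values of Psmb8 and Psmb9 was not tested.

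The remaining effectors overlapped. Bst2, which tethers budding virus particles, was at 6.86 and 7.38 FPKM in the controls against 6.35 and 9.67 in the cKO libraries, and Ifi35, a regulator of the response, at 9.32 and 11.46 in the controls against 9.97 and 10.94 in the cKO libraries. Rsad2, the antiviral enzyme viperin, was at 1.28 and 0.69 in the controls against 1.64 and 1.03 in the cKO libraries, low in the libraries numbered 2. Mx1, a dynamin-like antiviral GTPase, was at 1.62 and 0.70 in the controls against 1.33 and 1.51 in the cKO libraries, so that control library 2 alone was low. Its longest coding transcript, Mx1-201, of 627 codons, was listed at 0 in every library. The largest share of its FPKM, 38.8%, was that of Mx1-205, annotated as subject to nonsense-mediated decay. Cxcl10, a chemokine that draws T cells, was at 2.18 and 1.80 in the controls against 1.57 and 2.67 in the cKO libraries, with both extremes in cKO. Oasl2, an OAS-like protein, was at 2.49 and 1.79 in the controls against 2.12 and 1.95 in the cKO libraries. Mx2, Oasl1 and Ifi44 were not tested, with 0.09 to 0.77 FPKM and 6 to 43 recovered reads per library.

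The rest of the pathway was read from lists of 171 other genes, of which 169 were in the table and 122 were tested. None of the 122 passed limma, and the median difference was -0.05. At an unadjusted limma p of 0.05, 4 were higher and 2 lower, beside 454 and 232 of all 13817 genes tested. Of 21 interferon genes, 16 were listed at 0 in every library and none was tested. Ifnk, the keratinocyte interferon-κ, was listed at 0.21 and 0 FPKM in the controls against 0.81 and 0.39 in the cKO libraries, from 3, 0, 11 and 8 recovered reads. Ifng, made by T and natural killer cells, was at 0.19 and 0.21 in the controls against 0 and 0.03 in the cKO libraries, from 4, 6, 0 and 1 reads. Both had too few reads for a difference to be read.

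The next list holds proteins that act between the sensors and the interferon genes. Of 24 adaptors and kinases tested, both cKO libraries were above both control libraries in 11 and below in 0, beside 16.2% and 16.6% of all genes, with a median of 0.08; with equal column sums 9 were above and 0 below. Ikbke, a kinase that acts on IRF3 and IRF7, was at 6.97 and 5.36 FPKM in the controls against 12.35 and 13.16 in the cKO libraries, a difference of 0.95 ± 0.22 (limma adjusted p = 0.959, unadjusted 0.00555). Nlrx1, a mitochondrial protein reported to dampen MAVS, was at 5.82 and 6.68 in the controls against 11.20 and 14.05 in the cKO libraries, a difference of 0.90 ± 0.22. In Ikbke and Nlrx1 both cKO libraries were far above both control libraries. Tradd, an adaptor of death receptors and MAVS, was at 4.69 and 7.01 FPKM in the controls against 9.13 and 13.78 in the cKO libraries. The 2 most abundant of the list overlapped: Tomm70a, the import receptor that MAVS contacts, at 35.98 and 37.33 in the controls against 40.79 and 32.29 in the cKO libraries, and Nfkb1, an NF-κB subunit, at 33.21 and 35.02 in the controls against 34.45 and 36.63 in the cKO libraries.

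The following list covers the receptor side. Of 10 genes for interferon receptors and the proteins they signal through, both cKO libraries were above both control libraries in 0 and below in 4, beside 16.2% and 16.6% of all genes, with a median of -0.17; with equal column sums 1 was above and 2 below. Jak2 was at 15.14 and 13.47 in the controls against 12.47 and 7.30 in the cKO libraries, and Jak1, the most abundant, at 45.43 and 50.77 in the controls against 46.86 and 45.01 in the cKO libraries. Ifngr2, a chain of the interferon-γ receptor, was at 10.17 and 13.56 in the controls against 12.66 and 15.87 in the cKO libraries and overlapped.

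Other interferon-stimulated genes outside the 36 gave 28 tested, with a median of -0.23. Both cKO libraries were above both control libraries in 1 and below in 11, beside 16.2% and 16.6% of all genes. With equal column sums the counts were 1 and 8. With coding transcripts alone 26 were tested, with 2 above and 9 below, beside 18.3% and 15.1% of all genes, and a median of -0.09. Nmi, an interferon-induced partner of STAT proteins and of IFI35, was at 2.62 and 3.77 FPKM in the controls against 1.77 and 1.28 in the cKO libraries, a difference of -0.73 ± 0.27. Slfn5 was at 3.14 and 2.46 in the controls against 1.77 and 1.25 in the cKO libraries, and Parp10, an ADP-ribosyltransferase, at 11.91 and 12.76 in the controls against 8.64 and 10.23 in the cKO libraries. Parp10 was not among the genes below with limma-voom or with coding transcripts alone. The 2 most abundant overlapped: Ifi30, a lysosomal thiol reductase, at 133.5 and 67.62 in the controls against 118.3 and 73.63 in the cKO libraries, and Ifitm2 at 91.80 and 114.9 in the controls against 96.66 and 128.2 in the cKO libraries. The effectors among the members and these genes are thus counted over different genes, and whether the lists differ was not tested.

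**Figure D4:**
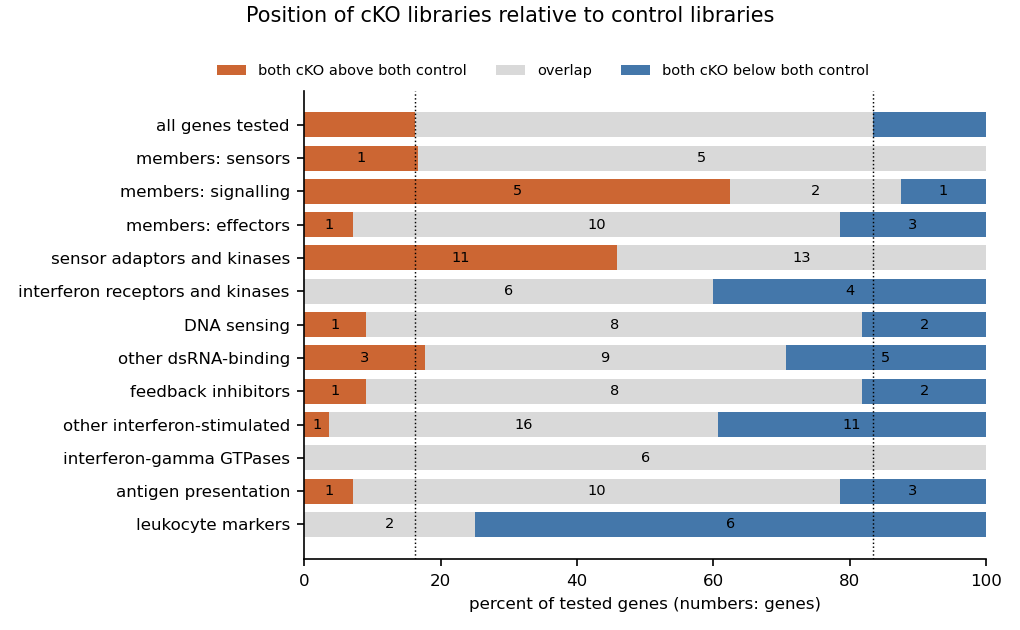
Percent of tested genes per list with both cKO libraries above both control libraries, overlapping, or with both below; numbers are genes and dotted lines mark the shares over all genes tested, 16.2% above and 16.6% below. Signalling members (5 of 8) and sensor adaptors and kinases (11 of 24) have the widest orange bars, and leukocyte markers (6 of 8) and other interferon-stimulated genes (11 of 28) have wide blue bars.

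Among genes for other dsRNA-binding proteins, 17 were tested, with both cKO libraries above both control libraries in 3 and below in 5, beside 16.2% and 16.6% of all genes, and a median of -0.11. Adarb1, which encodes the second editing enzyme ADAR2, was at 3.35 and 4.19 FPKM in the controls against 1.80 and 1.89 in the cKO libraries, a difference of -0.74 ± 0.23 (limma adjusted p = 0.959, unadjusted 0.0209), beside -0.05 for Adar. Zfr, a zinc finger RNA-binding protein, was at 32.57 and 28.86 in the controls against 28.20 and 19.51 in the cKO libraries, both of which were below both controls. The Zfr libraries overlapped under median-ratio scaling, equal column sums, limma-voom and coding transcripts alone. The most abundant of the list, Ddx3x (150.4 and 148.8 FPKM in the controls against 160.3 and 107.5 in the cKO libraries) and Dhx15 (112.5 and 103.1 in the controls against 110.0 and 82.66 in the cKO libraries), overlapped.

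Markers of other cells were measured in the same libraries, because immune cells express many of these genes. All 7 epidermal T cell markers had both cKO libraries below both control libraries, with sums of 82.2 and 84.7 FPKM in the controls against 36.8 and 47.7 in the cKO libraries. This count and those that follow are to be read against 16.2% above and 16.6% below over all genes tested. Trdv4, a γδ T cell receptor segment, was at 12.57 and 16.74 FPKM in the controls against 5.20 and 7.01 in the cKO libraries. Of 8 leukocyte markers 6 were below and 0 above, and of 13 markers of Langerhans cells and macrophages 5 were below and 0 above, with sums of 643.7 and 820.2 in the controls against 413.2 and 652.2 in the cKO libraries. Of these 5, Epcam was at 70.70 and 64.13 in the controls against 59.10 and 60.65 in the cKO libraries. Cd207 was at 2.18 and 2.09 in the controls against 0.62 and 1.93 in the cKO libraries. Which cells Epcam came from was not tested. Of 4 tested markers of plasmacytoid dendritic cells, 1 was below, 1 was above and 2 overlapped, with a median difference of -0.06. The 1 below was Siglech, at 2.17 and 2.57 in the controls against 1.08 and 1.28 in the cKO libraries. The 1 above was Ccr9, at 1.15 and 1.49 in the controls against 1.55 and 1.82 in the cKO libraries. The 2 that overlapped were Ly6d and Tcf4, at far higher levels. Ly6d was at 1918 and 1710 in the controls against 1973 and 1601 in the cKO libraries. Tcf4 was at 30.58 and 24.08 in the controls against 31.21 and 20.58 in the cKO libraries. Which cells Ly6d and Tcf4 came from was not tested, so the median need not describe plasmacytoid dendritic cells. Cd3e, Cd3g and Cd74 stand in more than 1 of these lists. No marker list had a member passing limma, and in bulk libraries fewer cells of a type and less RNA per cell cannot be told apart. Their part in the lower values of Ifi27 and the other interferon-stimulated genes was not tested. The keratinocyte markers were lower as well: all 6 had negative differences, with a median of -0.42, and both cKO libraries were below both control libraries in 2 (Krt15 and Trp63) and above in 0. Fibroblast markers summed to 47.2 to 62.5 FPKM, with 5 of 6 overlapping, and melanocyte markers to 389.2 to 506.4, with 4 of 5 overlapping.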

How the data were processed

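The authors deposited a table of 110295 transcripts by 4 libraries with no unit in its header. Values were treated as FPKM deposited by the authors, because value times transcript length sums to about the same in each library while the column sums differ. The submitters' processing notes list fastp, HISAT2, HTSeq and GRCm38, without versions. How transcript values were made, and whether strand was kept, is not given in the sources used here. Columns of control libraries carry the name WT and were matched by group and number. Low values were whole multiples of 1 read in 95.0% to 96.1% of cases (tolerance 0.2 reads), which gave the implied depth and the recovered reads. Symbols turned into dates (162) were looked up by transcript ID. Lengths and transcript types came from GENCODE M21, which covered 98.04% of transcripts.

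Values were added up per symbol. Genes reaching 1 FPKM in 2 or more libraries were tested on log2(FPKM + 1), which understates changes of low genes, with limma (trend, genotype only) and Benjamini-Hochberg adjustment at 0.05. The labels do not tell whether the libraries are of different animals, and p-values thus reflect spread among these libraries that may be technical. The 36 members, the context lists and the marker lists were chosen with earlier results of these data known. All members are described; of each context list, the 2 most abundant genes and up to 3 tested genes of lowest p are named, except that the values of 2 genes are not reported here. Marker genes named beside them were chosen after their values were seen. Shared 50-base words were counted between annotated transcripts, and matches of the promoter element by exact letters. The scripts were tested on simulated data. Software was limma 3.58.1 under R 4.3.3, and numpy 2.4.6, matplotlib 3.10.9 and pandas 2.3.3 under Python 3.11.15.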

Additional observations from a re-analysis of the deposited data

How the results depend on the processing

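Alternatives were a pseudocount of 0.1, no filter, a minimum of 5 FPKM, median-ratio scaling, equal column sums, limma without trend, limma-voom on recovered reads, protein-coding transcripts only, the replicate number as a block and leaving out each library, which leaves 1 library in a group that is assumed to vary like the other group. No member passed the threshold under any of them except Ifi27 with the replicate block. Deviations from the group means of libraries with the same number correlated at r = 0.72 across genes, but the labels do not say what the number marks and there are only 2 pairs. With the replicate number as a block, limma called 626 genes higher and 274 lower, and 1 member, Ifi27 (adjusted p = 0.0337). No other test used the pairing, and the differences within each number are given without a test.

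The median of the signalling members (0.14) was 0.15 with a pseudocount of 0.1, 0.36 at 5 FPKM (4 genes), 0.0896 with equal column sums, 0.22 with limma-voom, 0.25 with coding transcripts alone and 0.13 to 0.18 when each library was left out. The median of all members (0.02) was 0.21 at 5 FPKM, where 13 members remained, and that within number 1 (-0.10) was 0.16. Members with both cKO libraries above both control libraries numbered 4 with equal column sums, and those with both below 2 at 5 FPKM and 1 with coding transcripts alone. These counts cannot be given with 1 library in a group. Leaving out each library, limma called 5 to 51 genes higher and 3 to 20 lower, beside 0 and 0, and no member. With 1 library left out, 10 differences of single members that were under 1 SE in all libraries moved by more than that SE (Ifit1, Mx1, Bst2, Eif2ak2 and Ifih1), each gene once up and once down. Of the other 102, those over 1 SE kept their direction and those under it moved by at most 1 SE. The median of all genes moved from -0.03 to -0.08 with equal column sums.

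With 2 libraries per group, small differences of low members, many at under 100 reads, cannot be told from the spread.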

Other observations

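DNA sensing genes gave 11 tested, with both cKO libraries above both control libraries in 1 and below in 2, to be read against 16.2% and 16.6% of all genes, as are the counts that follow. The 1 above was Trex1, the exonuclease that clears cytosolic DNA, at 13.09 and 16.89 FPKM in the controls against 32.24 and 54.21 in the cKO libraries. Its difference of 1.43 ± 0.31 was larger than that of any of the 28 members tested, and it did not pass limma (adjusted p = 0.959, unadjusted 0.00373). Transcripts annotated to Atrip on the same strand share an exon with Trex1, which makes its level uncertain. Rnaseh2b, a subunit of RNase H2, was at 14.68 and 16.87 in the controls against 11.21 and 11.92 in the cKO libraries, while Rnaseh2a, the catalytic subunit, was at 32.53 and 37.71 in the controls against 34.67 and 50.89 in the cKO libraries.

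Antigen presentation genes gave 14 tested, with both cKO libraries above in 1 and below in 3. The 3 below included B2m, the light chain of class I molecules, at 121.1 and 127.7 FPKM in the controls against 92.56 and 110.1 in the cKO libraries, the class I gene H2-T23, at 41.64 and 35.60 against 33.12 and 29.71, and H2-Q4, at 3.30 and 3.52 against 1.66 and 2.76. The chaperones Calr (325.6 and 238.8 in the controls against 328.1 and 318.4 in the cKO libraries) and Pdia3 (144.0 and 97.26 in the controls against 141.6 and 118.4 in the cKO libraries) were the most abundant of the list and overlapped. All 6 interferon-γ GTPases tested overlapped, among them Irgm1 (5.31 and 2.45 in the controls against 2.58 and 3.47 in the cKO libraries), Igtp (2.73 and 1.94 against 2.22 and 2.45), Gbp2 (2.38 and 1.26 against 1.84 and 2.55), Gbp7 (2.21 and 0.78 against 1.34 and 0.41) and Ifi47 (0.66 and 1.69 against 0.46 and 1.08).

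Of 11 feedback inhibitors, both cKO libraries were above in 1, Tnfaip3 (1.94 and 2.32 in the controls against 2.72 and 2.71 in the cKO libraries), and below in 2, 1 of them Ptpn6 (16.45 and 20.79 against 14.26 and 16.18), a phosphatase of blood cells. Isg20, Trafd1 and Ptpn11 overlapped. Of 6 chemokine genes, Cxcl16 reached the minimum for testing, at 19.61 and 21.24 FPKM in the controls against 15.91 and 18.82 in the cKO libraries. Ccl5 was listed at 0.54 and 0.48 in the controls against 0.22 and 0.39 in the cKO libraries.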
